A study of Mus musculus with 54 samples.

Results

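FGF4, its receptors, the feedback inhibitors that the pathway induces and its target transcription factors were examined as 10 genes in the map of open chromatin of mouse embryonic stem (ES) cells with degradable OCT4. The genes were Fgf4, Fgfr1, Fgfr2, Spry2, Spry4, Spred1, Dusp6, Etv4, Etv5 and Egr1. Their peaks were the regions of the merged ATAC-seq peak list whose centre lay within 50 kb of any annotated transcription start site (TSS) of the gene. This gave 136 of the 113737 regions, or 0.12% of the list, and none was counted for more than 1 gene. ATAC-seq marks open chromatin by inserting sequencing adapters with the Tn5 transposase where DNA is accessible.

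The list was made from 54 ATAC-seq samples in 24 groups. All samples were ZHBTc4 ES cells, in which doxycycline (dox, 1 µg/ml) turns off the Tet-Off Pou5f1 transgene that supplies OCT4, so that the cells relied on OCT4-AID, a version of OCT4 with an mCherry tag and a degron that auxin activates, which the PGK promoter expressed at low level. All cells also carried Tir1, which couples the degron to the proteasome, and the YPet-MD reporter used to sort cell cycle phases. The auxin indole-3-acetic acid (IAA, 500 nM) triggers the degradation. The cell cycle set held 22 samples at 26 hr of dox, with or without IAA for 2 hr, sorted into EG1, LG1, S and SG2. The washout set held 16 samples at 31 hr of dox in the same phases, with or without 2.5 hr of IAA, and both arms were harvested after 4.5 hr of washout. The time course held 16 unsorted samples at 34 hr of dox with IAA for 0, 0.5, 1, 2, 3, 4, 6 or 10 hr. Every culture contained serum, LIF, CHIR99021 (3 µM, an inhibitor of GSK3) and PD184352 (0.8 µM, an inhibitor of the kinase MEK that activates ERK). The map around these genes was therefore made in cells whose ERK pathway was under a MEK inhibitor in every group. No sample without the inhibitor was analysed here.

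The regions were merged over all 54 samples and carry a position only. No height, sample or replicate belongs to any of them, so the effects of OCT4 loss, cell cycle phase and time on these peaks were not analysed here, and the values below have no replicate error. A peak in the list means that a region was called open in at least part of these cells. The stem cell genes Pou5f1, Sox2, Nanog, Esrrb, Zfp42 and Tfcp2l1, 6 of 6, had a peak within 1 kb of a TSS, whereas of genes of other tissues Alb, Ins2 and Myh6 did not, and Myod1 and Tyr did.

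FGF4 is secreted by ES cells and acts on the same cells through FGF receptors, chiefly FGFR1 and FGFR2, which activate RAS, RAF, MEK and ERK. ERK signalling prepares naive ES cells for differentiation, and blocking it helps to keep them undifferentiated. Active ERK induces immediate early genes such as Egr1 and the ETS factors Etv4 and Etv5, and it also induces its own brakes: the Sprouty and SPRED proteins, which act upstream of ERK, and the phosphatase DUSP6, which removes the activating phosphates from ERK itself. Fgf4 is also a textbook target of OCT4 and SOX2, through an enhancer located past its coding region.

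That enhancer was a peak of the list. It covered chr7:144864271-144864851 (GRCm38, 581 bp), its centre lay 3175 bp downstream of the principal TSS of Fgf4, and it began 1333 bp past the last coding base, within the 3′ UTR, and ended 392 bp before the end of the gene. It held the composite OCT-SOX motif, searched as CNTTGT, 1 to 4 bases of any kind, and ATGCNAAT, on both strands. The composite site is shown in 30 bases of the plus strand, on which Fgf4 is transcribed, at chr7:144864388-144864417, with the SOX and octamer parts in capitals and the spacer between them in lower case.

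Fgf4 enhancer: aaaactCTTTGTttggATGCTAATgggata

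Of the 106 distal peaks of the 10 genes, this was the 1 that matched the composite motif. A distal peak is one whose centre lies more than 1 kb from every annotated TSS of any gene. Among all 89794 distal peaks of the list the composite motif was present in 45, or 0.0501%. Since this enhancer was among the peaks to be described from the start, its match says nothing about the frequency of the motif around these genes. The site lay 154 bp from the centre of the peak, and the same peak held a further octamer match, 2 KLF matches and 1 ESRRB match. The octamer alone (ATGCNAAT) was found in 5 further distal peaks of the 10 genes, all on chromosomes other than 18. Each is shown in 30 bases read on the strand of the octamer, which is in capitals.

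Fgfr1, 47780 bp upstream, plus strand of chr8:25465515-25465544: aggagccaagaATGCAAATcatttgcaggc

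Spry2, 37156 bp downstream, minus strand of chr14:105859219-105859248: atatgttacatATGCAAATacccaaccact

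Dusp6, 1476 bp upstream, plus strand of chr10:99261471-99261500: ggtgattaaaaATGCAAATtgctttgcggg

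Dusp6, 21435 bp downstream, plus strand of chr10:99287325-99287354: gccagttttcaATGCAAATataagtgggga

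Etv5, in a coding exon, minus strand of chr16:22411954-22411983: gcctggttactATGCAAATgcctccctgga

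The distances are those of the peak's centre from the nearest TSS of the gene. The coding exon given for Etv5 is likewise that of the peak's centre, 9994 bp upstream, and the octamer lay 146 bp from it. Whether that octamer is itself exonic was not determined. In these 5 sites the octamer had the same letters, ATGCAAAT, whereas the composite site of Fgf4 read ATGCTAAT. The composite motif did not match in any of the 5. Together 6 of 106 distal peaks held an octamer (5.66%, 95% Wilson interval 2.62 to 11.8%), against 5.84% of all distal peaks in the list. Such intervals cover counting error only, and peaks of the same gene are not independent of each other. In the 200 bp around the centre of the peak, no octamer match was found among the 106, whereas 2.69% of all distal peaks had one there.

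All 10 genes had a peak within 1 kb of one of their own TSSs, where 70.8% of the 21938 protein-coding genes did. The 18 such peaks, hereafter TSS peaks, stood beside 106 distal peaks and 12 peaks that lay within 1 kb of the TSS of another gene only. Every one of the 10 genes had at least 1 distal peak, as did 90.2% of protein-coding genes. The number of distal peaks ranged from 4 to 19, with a median of 8.5 (lower and upper quartiles 7.0 and 15.8). The median over all protein-coding genes was 4.0, and over the 15535 with a TSS peak 5.0. A gene with TSSs far apart is searched over a wider window, and the density allows for that. It was 6.68 distal peaks per 100 kb at the median of the 10 genes, 3.92 over all protein-coding genes and 4.42 over those with a TSS peak. Spred1 and Etv4 equalled the median count of all genes, and the other 8 were above it.

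**Figure D1:**
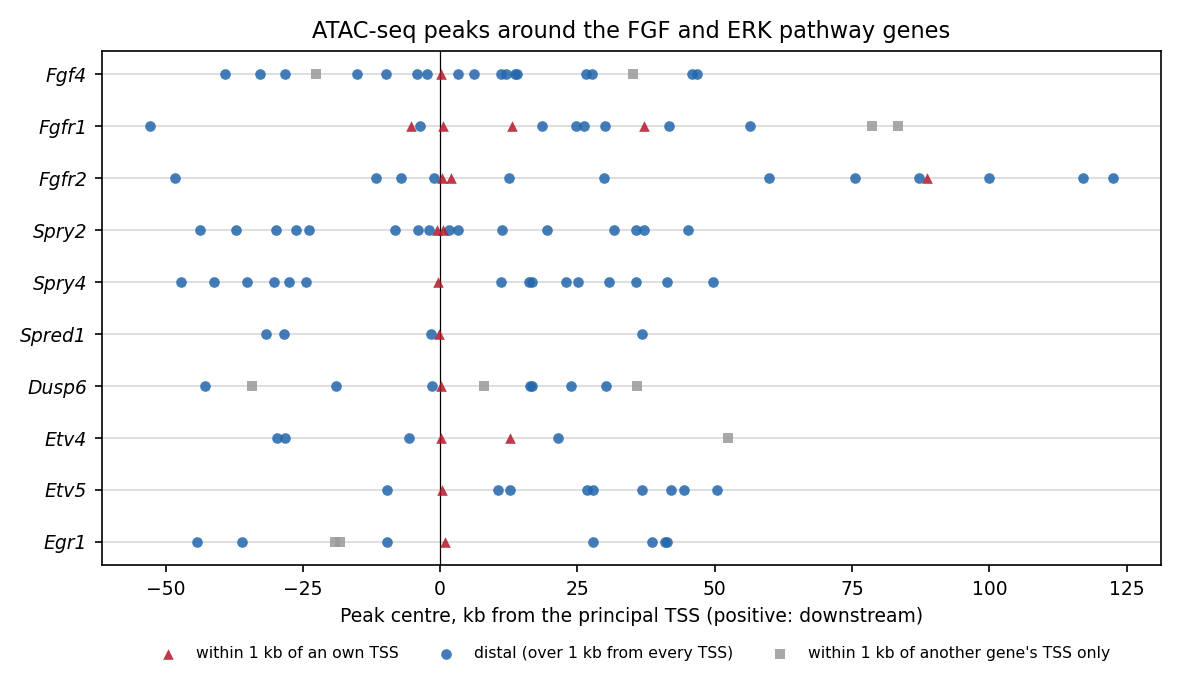
Position of each peak, as the distance of its centre from the principal TSS of the gene in kb, for the 10 genes. Triangles are peaks within 1 kb of an own TSS, circles are distal peaks and squares are peaks within 1 kb of the TSS of another gene only. The 10 peaks that belong to Fgfr2 through a remote TSS are not drawn. The distal peaks of Spry4 leave the middle of its window empty, from 11153 bp downstream to 24466 bp upstream of the TSS, and Spred1 and Etv4 have 4 distal peaks each.

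Fgfr2 (19), Fgf4 (17), Spry2 (16) and Spry4 (15) had the most distal peaks. The count of Fgfr2 includes 7 peaks at another gene, described below, without which it was 12. Within 20 kb in place of 50 kb, Fgf4 had 12, Fgfr2 10 at the gene itself and 2 at the other gene, Etv5 9, and Spry2 and Fgfr1 7. Dusp6 had 4 within 20 kb, Spry4 3, Etv4 2, and Spred1 and Egr1 1. Within 50 kb, Etv5 had 9, Fgfr1 8, Dusp6 and Egr1 7, and Spred1 and Etv4 4. Of all protein-coding genes, 3.58% had as many distal peaks as Spry4 or more, and 59.0% had as many as Spred1 or Etv4. By density Fgfr2, whose window was the longest (298 kb), was no longer at the top. With 6.37 distal peaks per 100 kb it stood below Etv5 (6.53), Dusp6 (6.84) and Egr1 (6.90) and above Fgfr1 (5.13), Spred1 (3.99) and Etv4 (3.53). Spry2 (16.0), Spry4 (15) and Fgf4 (14.9) were the densest, and at most 0.579% of protein-coding genes were as dense.

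**Figure D2:**
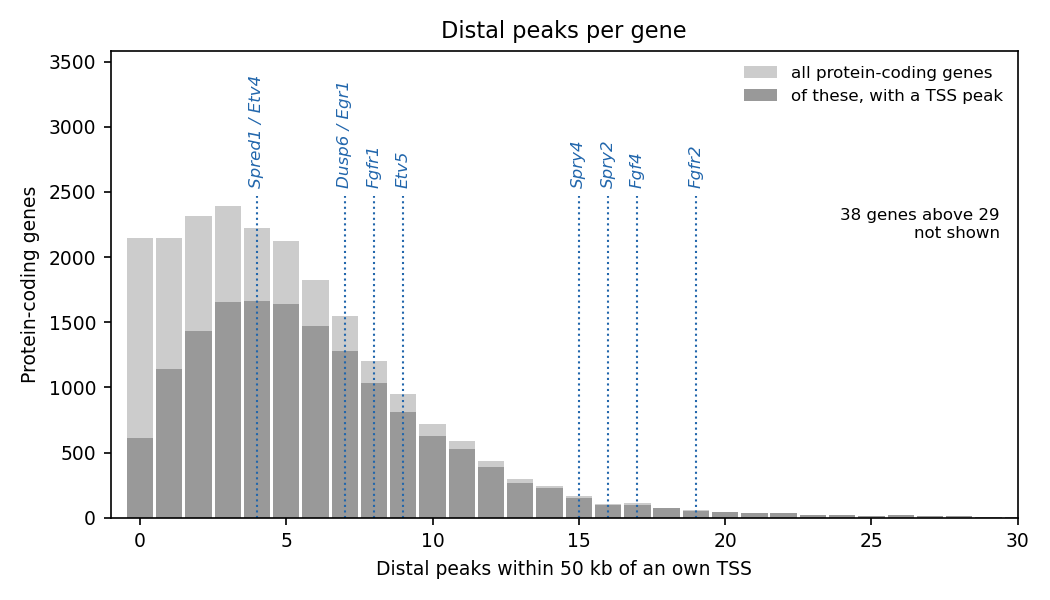
Number of protein-coding genes (vertical axis) by their number of distal peaks within 50 kb of an own TSS (horizontal axis). Light bars are all genes and dark bars those with a TSS peak, and dotted lines mark the 10 genes. The lines of Spry4, Spry2, Fgf4 and Fgfr2 stand at 15 to 19 (Fgfr2 at 12 without the remote TSS), and 38 genes above 29 are outside the plot.

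The ligand gene Fgf4 lies on the plus strand of chromosome 7 between 2 other FGF ligand genes, Fgf3 and Fgf15, whose principal TSSs are at -22.8 and 35.1 kb from that of Fgf4. Its TSS peak, chr7:144861043-144862145, was 1103 bp wide and had a GC content of 68.9%. The annotation also gives Fgf4 a second TSS 14019 bp upstream of the principal one. No peak centre lay within 1 kb of it, and the nearest peak, 587 bp wide, was centred 1080 bp further upstream. Of the 17 distal peaks 11 were downstream and 6 upstream of the nearest Fgf4 TSS. After the peak in the 3′ UTR they continued past the end of the gene at 6110, 11035, 11925, 13571 and 13938 bp from the TSS. The 2 peaks at 13571 and 13938 bp were 13 bp apart and so entered the list as separate regions. Fgf4 was the nearest protein-coding gene for 10 of the 17, Fgf3 for 3, Fgf15 for 2 and LTO1 for 2. Position alone does not say which of these ligand genes a peak belongs to.

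Between the second and the principal TSS of Fgf4, 3 intronic peaks were listed, 1064, 312 and 229 bp wide. An AP-1 match (TGANTCA) was present in the first and second of these and in 6 of the 17 distal peaks of Fgf4, against 15.1% of all distal peaks. An ESRRB match (TCAAGGTCA, the site of the orphan nuclear receptor ESRRB) was present in 3 of 17, against 3.11% of all distal peaks. All peaks of the window together covered 12.3% of it, where the median protein-coding gene had 4.36%.

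**Figure D3:**
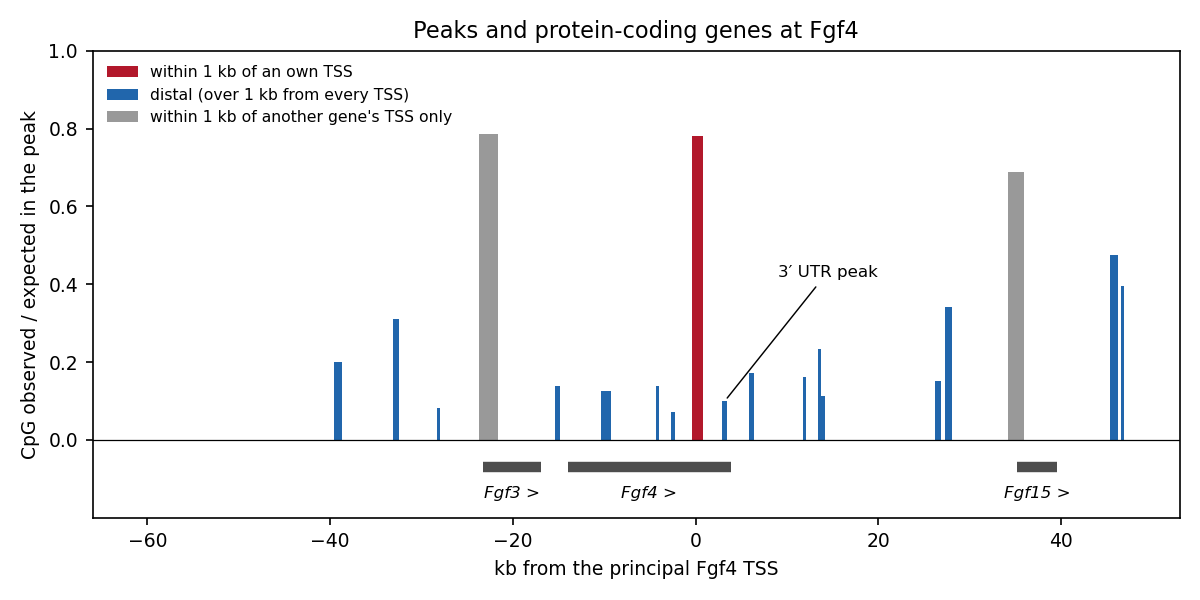
Peaks (bars) and protein-coding genes (horizontal lines, with the direction of transcription) against the distance from the principal Fgf4 TSS in kb. The height of a bar is the ratio of observed to expected CpG dinucleotides in the peak, and its width is that of the peak, drawn at no less than 350 bp. The TSS peaks of Fgf3, Fgf4 and Fgf15 reach 0.785, 0.780 and 0.689, the 3′ UTR peak 0.0994, and the peak at 11035 bp has no CpG and hence no visible bar.

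The receptor gene Fgfr1 has 18 annotated TSSs, and 4 peaks lay at them. The peak at the principal TSS, chr8:25518643-25519789, was 1147 bp wide with a CpG ratio of 0.862. The CpG ratio is the number of CpG dinucleotides divided by the number expected from the C and G content, and it is high in CpG islands. The other 3 TSS peaks were 747 bp (chr8:25513108-25513854), 207 bp and 748 bp wide, with CpG ratios between 0.253 and 0.506. The narrowest was 83.1% repeat sequence. The peak of 747 bp, at the most upstream start of the gene, held an octamer match. The 8 distal peaks were all nearest to Fgfr1, and 7 lay inside the gene. The widest of them, 1153 bp, was intronic, 4954 bp downstream of the nearest TSS, and held 3 SOX matches (CNTTGTT) and 4 KLF matches (GGGNGTGG). The last, 502 bp wide, lay in the last exon and 3′ UTR and held a CTCF match. The remaining 1, at 47780 bp upstream, carried the octamer printed above beside a SOX, a KLF and 2 AP-1 matches. This peak was intronic to Gm31045, a gene without a protein product.

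The receptor gene Fgfr2 had 3 TSS peaks at the gene and 1 elsewhere. A transcript assigned to Fgfr2 starts 2.86 Mb upstream of the principal TSS, at the promoter of Ctbp2, a transcriptional corepressor gene, and 10 peaks were included through that TSS alone. Without it Fgfr2 had 12 distal peaks in place of 19, and 99 distal peaks remained over the 10 genes. The 10 remote peaks include the widest TSS peak, chr7:133122431-133125127 (2697 bp), and the widest distal peak, chr7:133114584-133116310 (1727 bp), which are at Ctbp2. At the gene itself the widest TSS peak was chr7:130265020-130266859, 1840 bp wide, and covered the principal TSS. The other 2 were 280 and 244 bp wide. Of the 12 distal peaks at the gene all had Fgfr2 as the nearest protein-coding gene. None held an octamer match, and the TSS peak of 244 bp did. The peak 8274 bp downstream of an internal TSS, 995 bp wide, was the widest of the 12 and held 2 SOX, 2 AP-1, 1 STAT3 (TTCCNGGAA) and 1 TCF (ATCAAAG) matches.

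The feedback inhibitor genes differed among themselves in the number of distal peaks within 50 kb. Spry2 and Spry4, which encode Sprouty proteins, had 16 and 15 distal peaks, Dusp6 7 and Spred1 4. Spry2 has 1 annotated TSS. Its main TSS peak, chr14:105896614-105898007, was 1394 bp wide, and a second of 257 bp lay 546 bp downstream of the TSS. The 16 distal peaks were divided evenly, 8 upstream and 8 downstream, and Spry2 was the nearest protein-coding gene for all 16. In order of distance downstream, 4 of them were centred at 31674, 35736, 37156 and 45184 bp, 3 of which were over 1 kb wide (1405, 1527 and 1058 bp). The peak of 1527 bp carried the octamer printed above, 3 SOX matches and 1 match each to ESRRB, KLF and TCF. Within 5 kb of the TSS there were 4 more, at 1640 and 3301 bp downstream and at 2117 and 4115 bp upstream.

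Spry4 had a different layout. Its single TSS peak, chr18:38600727-38602882, was 2156 bp wide, and 2.95% of protein-coding genes with a TSS peak had one as wide at their nearest TSS. No distal peak lay within 10 kb of the TSS. The nearest, 708 bp wide, was 11153 bp downstream in the coding exon of Spry4. Of the 15 distal peaks 9 were downstream and 6 upstream, and the widest, chr18:38635667-38637381 (1715 bp), was 35109 bp upstream and held 2 ESRRB, 2 SOX, 1 AP-1, 1 KLF and 1 STAT3 matches. Both Sprouty genes thus had a distal peak over their coding exon, of 353 bp at Spry2 and 708 bp at Spry4, with CpG ratios of 0.417 and 0.460. At Spry4, 2 peaks 16637 and 16235 bp downstream were 5 bp apart, the closest pair among the 136.

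Spred1, which encodes an inhibitor of RAS and RAF activation, was the poorest in distal peaks within 50 kb together with Etv4, but had the most CpG-rich nearest TSS peak of the 10 genes. That peak, chr2:117120442-117121973, was 1532 bp wide with a CpG ratio of 1.01 and a GC content of 71.3%. The 4 distal peaks were centred 1586, 28388 and 31663 bp upstream and 36502 bp downstream. The last, 176 bp wide, consisted entirely of repeat sequence. Peaks covered 3.12% of the Spred1 window, the lowest share of the 10.

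Dusp6, the ERK phosphatase gene, had a TSS peak of 1175 bp, chr10:99262778-99263952, with a CpG ratio of 0.879. A wide distal peak, chr10:99261248-99262262 (1015 bp), stood 1476 bp upstream as a separate region. Its GC content of 64.8% and CpG ratio of 0.827 were close to those of TSS peaks. It held the octamer printed above and 2 matches to the CArG box (CC, 6 A or T, GG), the site of serum response factor (SRF). These are shown in 30 bases of the plus strand with the box in capitals, together with the CArG box of the peak 6110 bp downstream of Fgf4, since SRF is a textbook recipient of ERK signals through its ETS partners.

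Dusp6, 1910 bp upstream, chr10:99261307-99261336: ccagtgctgcCCAAAAAAGGcgcggagaga

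Dusp6, 1826 bp upstream, chr10:99261391-99261420: cgggagggctCCAAAATTGGctacttggac

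Fgf4, 6098 bp downstream, chr7:144867470-144867499: tggcctcactCCTTTAAAGGaccacttgta

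Of the other 6 distal peaks of Dusp6, 1 held a match to any of the motifs, the octamer at 21435 bp downstream. Around Dusp6, 3 peaks lay at TSSs of non-coding genes (Gm34574, Gm34921 and B530045E10Rik), of which those 34343 bp upstream and 33408 bp downstream also held an octamer.

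The ETS factor genes Etv4 and Etv5 are among the most direct transcriptional readouts of ERK. Etv4 had 2 TSS peaks, of 1414 bp at the principal TSS (chr11:101784480-101785893) and of 929 bp at an internal TSS, and 4 distal peaks of 314 to 577 bp. The 2 most remote of these, 28126 and 29636 bp upstream, each held a CTCF match, and the only other motif match among the 4 was 1 SOX. Etv5 had 1 TSS peak, chr16:22438450-22440324, 1875 bp wide, and 9 distal peaks of which 8 were inside the gene. None was further than 12430 bp from an Etv5 TSS. The widest distal peak, 1093 bp, was intronic, 7358 bp downstream of the nearest TSS, and held 1 SOX and 1 STAT3 match.

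Egr1, an immediate early gene that encodes a zinc finger transcription factor, had a TSS peak of 1791 bp, chr18:34859884-34861674, and 7 distal peaks. The TSS peak held 5 CArG boxes, centred 79, 101, 349, 365 and 403 bp upstream of the nearest Egr1 TSS. That TSS is not the principal one. The principal TSS lies upstream of all 5 boxes, and this TSS peak was centred 956 bp downstream of it. Among the 19525 TSS peaks of all protein-coding genes, 690 (3.53%) held at least 1 CArG box and this was the 1 with at least 5. The other 17 TSS peaks of the 10 genes held none. Its distal peaks were mostly beside other genes: Etf1 was the nearest protein-coding gene for 3, Kdm3b for 2 and Egr1 for 2. Those nearest to Egr1 were centred 9613 bp upstream (606 bp wide, with a CTCF match) and 26418 bp downstream (1180 bp wide, with a CpG ratio of 0.688). A further 2 peaks of the window lay at TSSs of Reep2.

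At 9 of the 10 genes the TSS peak nearest to a TSS was wider than the median distal peak, and Fgfr2 was the exception (280 against 312 bp). The 280 bp peak was centred 2057 bp downstream of the principal Fgfr2 TSS, whose own peak was 1840 bp wide. The median of 312 bp includes the distal peaks at Ctbp2. The TSS peak nearest to a TSS had a median width of 1404 bp over the 10 genes, against 1172 bp over protein-coding genes with one (lower and upper quartiles 892 and 1440 bp), and 7 of the 10 exceeded that median. With the widest TSS peak of each gene in its place the median of the 10 was 1473 bp. The distal peaks had a median width of 424 bp and ranged from 158 to 1727 bp, against a median of 380 bp over all distal peaks. Distal peaks over 1000 bp numbered 11 (10.4%, against 7.25% of all distal peaks).

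**Figure D4:**
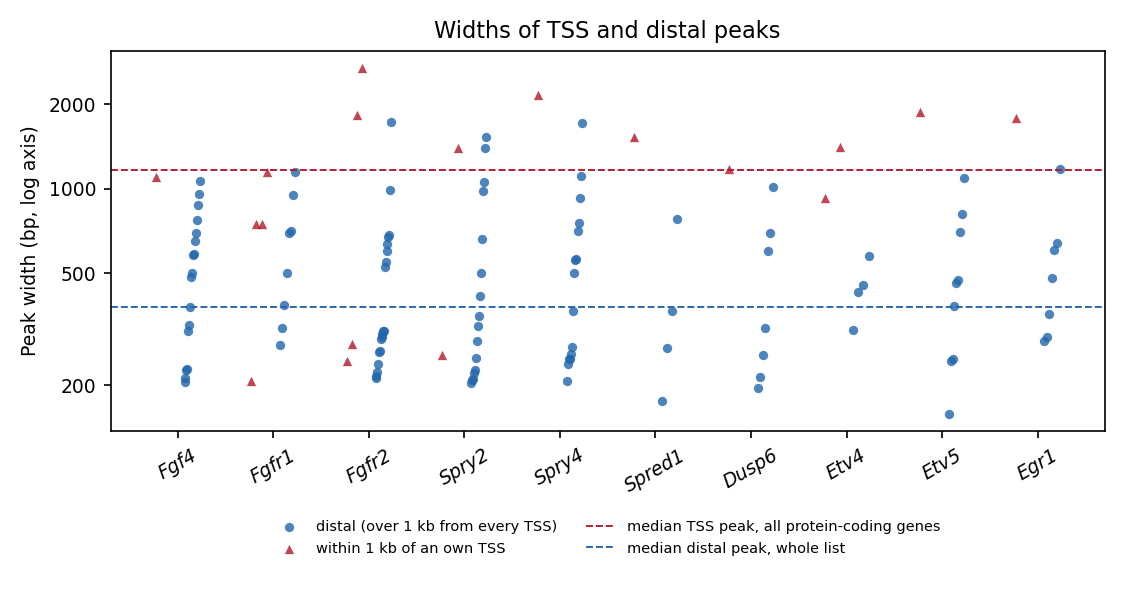
Width of each TSS peak (triangles) and distal peak (circles) in bp on a log axis, by gene. Dashed lines are the medians of the nearest TSS peak over protein-coding genes (1172 bp) and of all distal peaks in the list (380 bp). The Fgfr2 points include the 10 peaks at Ctbp2, and at 7 of the 10 genes, all but Fgfr1, Fgfr2 and Spry2, every TSS peak lies above all distal peaks of the gene.

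In position, 37 of the 106 distal peaks (34.9%) lay 1 to 10 kb from the nearest TSS of the gene, 21 at 10 to 20 kb, 18 at 20 to 30 kb, 16 at 30 to 40 kb and 14 at 40 to 50 kb. Over all protein-coding genes 24.0% of the pairs of gene and distal peak lay within 10 kb. The distal peak closest to a TSS was 1531 bp away at the median of the 10 genes, and 6573 bp away over protein-coding genes with a distal peak. The outliers were Spry4 and Egr1, whose closest distal peaks were 11153 and 9613 bp away. Each distance is from the nearest annotated TSS, which can be far from the principal one. At Fgfr2 and Etv5 the closest distal peaks, 1023 and 1118 bp away, lay 87104 and 36772 bp downstream of the principal TSS. Upstream peaks made up 44.3% of the 106, and 49.2% of the pairs over all genes. Introns held 46 of the 106 (43.4%, against 44.3% of all distal peaks), exons 9 (8.49%, against 6.14%) and intergenic sequence 51 (48.1%, against 49.6%). A member of the 10 was the nearest protein-coding gene for 84 (79.2%), and the other 22 were nearest to another gene. At the limits of the windows, the last peak inside 50 kb was at 49699 bp from Spry4 and the first outside at 50468 bp from Egr1. The last peak counted as proximal to a TSS was at 912 bp and the first distal at 1023 bp.

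In base composition the distal peaks had a median GC content of 50.6% (47.7% over all distal peaks), a median CpG ratio of 0.232 (0.210) and a median of 11.6% repeat sequence (13%). Repeats made up most of the sequence in 6 distal peaks (5.66%, against 15.5% of all distal peaks). The nearest TSS peaks had a median GC content of 63.0% and CpG ratio of 0.798 over the 10 genes, against 59.1% and 0.686 over protein-coding genes. To show the contrast, 150 bases of the Spred1 TSS peak just before the RefSeq start (chr2:117120921-117121070, plus strand), the central 150 bases of the CpG-rich distal peak 1476 bp upstream of Dusp6 (chr10:99261680-99261829, plus strand), and those of the distal peak 5659 bp upstream of Etv4 (chr11:101790955-101791104, minus strand) are given with each CpG in capitals.

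Spred1 TSS peak: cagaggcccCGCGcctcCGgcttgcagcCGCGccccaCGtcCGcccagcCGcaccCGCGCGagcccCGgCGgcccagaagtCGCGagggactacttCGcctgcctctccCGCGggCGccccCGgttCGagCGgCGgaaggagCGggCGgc

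Dusp6 upstream peak: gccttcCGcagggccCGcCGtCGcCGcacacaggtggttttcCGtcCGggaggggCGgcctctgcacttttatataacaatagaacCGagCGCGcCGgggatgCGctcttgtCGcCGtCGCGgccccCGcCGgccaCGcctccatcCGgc

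Etv4 upstream peak: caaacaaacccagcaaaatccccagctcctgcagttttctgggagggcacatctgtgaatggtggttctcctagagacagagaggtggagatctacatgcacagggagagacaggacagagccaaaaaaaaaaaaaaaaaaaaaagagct

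The 3 stretches held 25, 21 and 0 CpG dinucleotides. The Dusp6 peak is distal by the limit of 1 kb, and 5 of the 106 distal peaks had a CpG ratio of 0.6 or more (4.72%, against 3.49% of all distal peaks).

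Across the 12 motifs searched as exact letters on both strands, 69 of the 106 distal peaks held at least 1 match (65.1%, against 58.9% of all distal peaks). SOX matches were the most frequent, in 34 (32.1%, 95% Wilson interval 24.0 to 41.5%, against 29.3%), followed by KLF in 26 (24.5%, 17.3 to 33.5%, against 19.2%), AP-1 in 19 (17.9%, 11.8 to 26.3%, against 15.1%) and TCF in 10 (9.43%, against 8.55%). In the central 200 bp the order was turned for TCF, with matches in 2 of the 106 (1.89%, against 3.72%). It was also turned for CRE and for the composite OCT-SOX motif, each with no match (against 0.202% and 0.0189%). A SOX match overlaps the SOX part of the composite motif where the base after it is T. The ESRRB motif was present in 9 (8.49%, 4.53 to 15.4%), where 3.11% of all distal peaks held it, and this share lay below the interval. These 9 peaks were at Fgf4 (3), Spry2 (2), Spry4 (2), Fgfr2 (1) and Etv5 (1). CArG boxes were present in 5 (4.72%, 2.03 to 10.6%, against 2.37%), STAT3 matches in 5 (4.72%, against 2.1%) and CTCF matches in 7 (6.60%, against 4.53%). Of the remaining motifs, ETS (CCGGAAGT) and CRE (TGACGTCA) matched in 1 distal peak each (0.943%, against 0.859% for ETS and 0.473% for CRE). The ETS match was in the wide peak at Ctbp2, so without the remote Fgfr2 TSS no distal peak held one. Since 12 motifs were compared without a test and wider peaks hold more matches, these shares are descriptions, and a match is not a bound site.

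**Figure D5:**
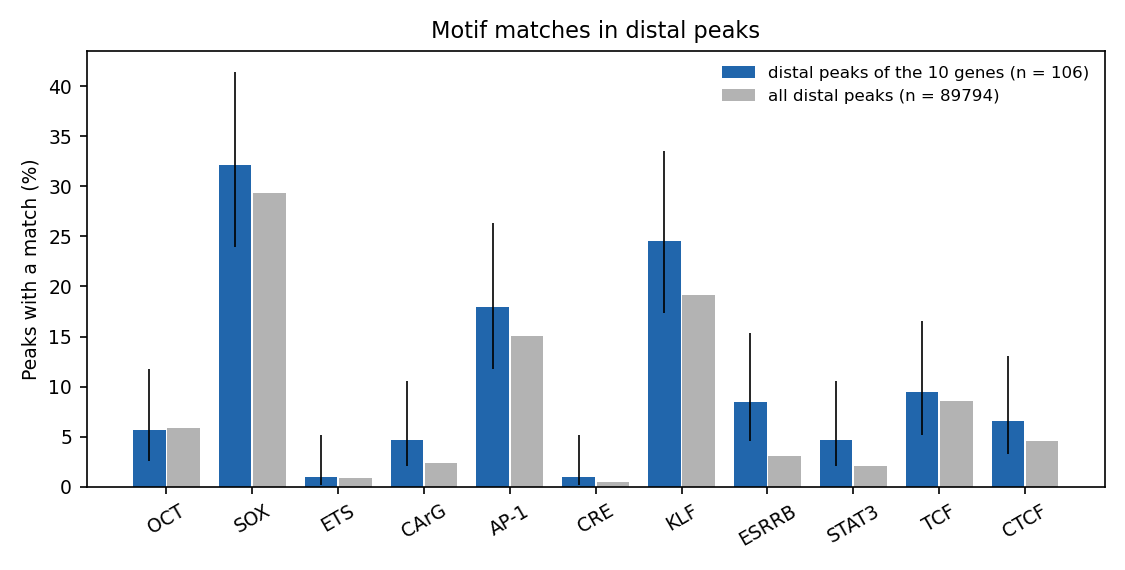
Share of distal peaks with at least 1 match (%) for each motif, for the 106 distal peaks of the 10 genes (dark bars, with 95% Wilson intervals) and all 89794 distal peaks of the list (light bars). The composite OCT-SOX motif, whose 1 match is the known Fgf4 enhancer, is not drawn. The light bar lies below the interval for ESRRB and within it for the other 10 motifs.

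The other genes of the pathway gave a like picture at TSSs. Of 61 genes listed by role, 60 were found in the annotation, Spry3 being the exception, and 55 of the 60 had a TSS peak (91.7%, against the 70.8% of all protein-coding genes). The 5 without were all ligand genes, Fgf1, Fgf6, Fgf7, Fgf17 and Fgf21. All 3 other receptor genes, all 18 signal transducers, all 10 other feedback inhibitors and all 12 other target transcription factor genes had one. The median number of distal peaks was 7.0 over the 60, and by role it was 10.0 for receptors, 7.5 for feedback inhibitors, 7.0 for ligands and signal transducers and 5.0 for target transcription factors. The highest counts were at Gab1, an adaptor of receptor signalling (16), Spred2 (15) and Fgf15 (15), whose window shares peaks with that of Fgf4. The 10 genes above had a median of 8.5.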

How the data were processed

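The authors aligned the paired ATAC-seq reads to GRCm38 (mm10) with STAR 2.6.1c, removed duplicates with Picard, discarded all but the autosomes and sex chromosomes, ran the peak caller MACS2 2.1.1.20160309, and merged the peaks of all dox-treated OCT4-AID samples with BEDTools. The deposited list holds 3 columns, chromosome, start and end, with no score, count or signal. Whether peaks were called per library or on pooled reads is not given in the sources used here, and the depth per sample is unknown. By the methods, regions were dropped where they met blacklisted sequence or peaks of input libraries, and where they exceeded 5 kb, yet 11 wider ones remain, none around these genes.

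Peak centres were set against the TSSs of GENCODE M21 (all transcripts) with a window of 50 kb and a limit of 1 kb for TSS peaks. The principal TSS is that of the most upstream APPRIS principal transcript. Sequence, repeat masking and motif matches came from the RefSeq GRCm38.p6 genome (samtools 1.23.1, Python 3.11.15, pandas 2.3.3), and the Spred1 start from the RefSeq promoter table. The functions were tested on simulated data. No test was run, since no value belongs to a sample. The genes, lists and motifs were chosen with earlier results of these data known. All 10 genes are named, and of other pathway genes those without a TSS peak and the 3 with the most distal peaks. A further marker gene of another tissue is not reported here.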

Additional observations from a re-analysis of the deposited data

How the results depend on the processing

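With a window of 20 kb in place of 50 kb the 10 genes had 82 peaks, of which 58 were distal, with a median of 5.5 distal peaks per gene, and 38 distal peaks held a motif. With 100 kb these values were 227, 184, 16.0 and 117. When motifs were searched only in the 200 bp around the centre, 43 distal peaks held one. By gene, 20 kb left 7 distal peaks at Spry2, 3 at Spry4, 4 at Dusp6, 2 at Etv4, 1 at Spred1 and 1 at Egr1, so that Spry4 was no longer among the genes with the most, 12 at Fgf4, and 12 at Fgfr2 of which 2 were at Ctbp2. The cause was not tested. With 100 kb there were 33 at Fgfr2, 31 at Spry2, 17 at Etv5, 15 at Dusp6, 13 at Etv4, 12 at Spred1, 11 at Egr1 and 9 at Fgfr1, so that Spred1 and Etv4 no longer had the fewest. All 10 genes kept a TSS peak under each alternative that recounted them. The counts of peaks, of distal peaks and of those with any motif, and the medians over the 10 genes, stayed within 1.5 times the reported value when regions under 200 bp or over 5 kb were left out, with TSSs of protein-coding transcripts only, with limits of 500 or 2500 bp for TSS peaks, and without the remote Fgfr2 TSS, an alternative chosen after seeing the data. Of single motifs, the 1 CRE match was lost with the limit of 2500 bp, with 20 kb and in the central 200 bp, and the 1 ETS match without that TSS. The central search left 17 distal peaks with SOX, 12 with KLF, 8 with AP-1, 4 with ESRRB, 4 with CTCF, 3 with CArG, 2 with TCF and 1 with STAT3. It left none with the octamer or the composite OCT-SOX motif, so the composite match of the Fgf4 enhancer was lost. A window of 20 kb left 17 with SOX, 14 with KLF, 10 with AP-1, 4 with TCF, 4 with CTCF, 3 with OCT and 2 with CArG. Counting any base of the peak left 136 peaks and 10 genes with a TSS peak, and the other values were not recomputed. Giving distal peaks to the nearest protein-coding gene only left 84, with the median number and width within 1.5 times, and the motifs were not recounted. Given to the nearest gene only, the distal peaks fell to 10 at Fgf4, 12 at Fgfr2 and 2 at Egr1. Leaving out each gene in turn gave a median of 8.0 to 9.0 distal peaks. No paired analysis was possible because no value of the list belongs to a sample. Absence from the list cannot be told apart from a lack of depth or from removal by the filters.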
